A study of Mus musculus with 27 samples.

Results

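A set of 9 transcription factor genes that mark position along the hindbrain were followed across mouse medulloblastomas driven by the Hedgehog pathway. They were En1, En2, Gbx2, Irx3 and Irx5, which mark the anterior hindbrain, and Hoxa2, Hoxb2, Hoxb3 and Hoxb4, which mark the posterior segments called rhombomeres. The members were every probe set of the array annotated to exactly 1 of these genes. That step used no measured value, but the genes themselves were chosen with earlier results of these data known. This gave 11 probe sets for 9 genes, out of 45101 probe sets and 18194 named genes on the array. Hoxb3 and Hoxb4 had 2 probe sets each.

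RNA of mouse cerebellar samples had been hybridised to 27 Affymetrix arrays, 1 sample to each. In 19 tumours a cre driver had turned on the allele SmoM2, which encodes a constantly active Smoothened, the membrane protein that passes on the Hedgehog signal. The drivers were Math1-cre (3 tumours), Tlx3-cre (3), Olig2-tva-cre (7) and hGFAP-cre (6), and 2 more tumours came from Ptc1+/- mice, which have 1 working copy of the gene of the Hedgehog receptor Patched. These groups are called Math1, Tlx3, Olig2, hGFAP and Ptc1+/- tumours. The 6 controls were cerebellum free of tumour, and by their labels controls 1 and 2 carried Olig2-tva-cre:SmoM2, control 3 carried hGFAP-cre:SmoM2, controls 4 and 5 carried Mxi1-cre:SmoM2, and control 6 was Ptc1+/-. The controls thus had pathway alleles as well, and none was wild type by its label. Math1 (Atoh1) drives expression in granule neuron precursors, while the Olig2 and human GFAP promoters work in less restricted progenitors. Ages were not given in the sources used here.

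Signals are given on the log2 scale after each array was scaled to a common trimmed mean, and values under 3.37 were raised to that floor, below which signal was treated as background. The median of the whole table, 5.51, served as a second mark of low signal. The deposited signals had trimmed means from 42.58 to 205.96 per array, and all 6 controls lay between 117.9 and 160.98. Arrays of the Olig2, hGFAP and Ptc1+/- tumours resembled each other less (median correlation within the group of 0.885, 0.888 and 0.863) than those of Math1 tumours (0.947), Tlx3 tumours (0.961) and controls (0.949). The granule neuron precursor gene Atoh1 averaged between 9.49 and 10.60 in the 5 tumour groups and 5.32 in the controls. Gabra6, a receptor subunit of mature cerebellar granule neurons, averaged between 5.19 and 8.10 in the tumour groups and 12.53 in the controls. Array number limits the precision of every value. Differences are from limma, with p-values adjusted over all 13527 genes tested by the Benjamini-Hochberg method, and 0.05 was the threshold for a call. In such bulk samples, fewer cells of a type and less RNA per cell cannot be told apart.

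The embryonic hindbrain is patterned from front to back by homeodomain proteins. At its front border, the isthmus, Gbx2 opposes the midbrain factor Otx2, Fgf8 is secreted, and the Engrailed genes En1 and En2 are switched on. The cerebellum arises from the segment just behind, rhombomere 1, which expresses no Hox gene. Hox genes are switched on further back, in an order along the body that follows their order in the chromosome cluster. Iroquois (Irx) genes act in neural patterning over the midbrain and hindbrain.

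Hoxb2 and Hoxb3, neighbours in the Hoxb cluster, were high together in single tumours, and the adjoining Hoxb4 in part of these. The only promoter sequence at hand from that stretch, that of Hoxb4, is therefore shown. It stands with that of En1, whose signal separated hGFAP from Olig2 tumours. Of the 9 genes, 5 had a promoter entry in RefSeq (En1, Gbx2, Irx3, Hoxa2 and Hoxb4, build GRCm38.p6), each running from 250 bases before to 50 bases after the start of the gene. Capitals mark matches on either strand to a retinoic acid receptor core site (AGGTCA) or to the site of the Hox cofactors Meis and Pknox (TGACAG). The Hoxb4 window is chr11:96318017-96318316 on the plus strand and the En1 window chr1:120602237-120602536 on the plus strand.
Hoxb4: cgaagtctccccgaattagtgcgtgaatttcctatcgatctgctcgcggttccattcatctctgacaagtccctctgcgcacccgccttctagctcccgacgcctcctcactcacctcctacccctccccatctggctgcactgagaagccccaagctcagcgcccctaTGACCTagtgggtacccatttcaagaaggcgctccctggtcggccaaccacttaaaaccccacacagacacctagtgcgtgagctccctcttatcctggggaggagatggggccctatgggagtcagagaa
En1: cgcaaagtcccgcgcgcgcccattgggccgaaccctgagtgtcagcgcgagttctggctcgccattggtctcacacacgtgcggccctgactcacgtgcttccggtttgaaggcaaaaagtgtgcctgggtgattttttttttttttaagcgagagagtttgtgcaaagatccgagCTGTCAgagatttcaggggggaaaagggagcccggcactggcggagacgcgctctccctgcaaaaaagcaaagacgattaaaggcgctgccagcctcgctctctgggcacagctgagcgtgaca
The Hoxb4 window held 1 match to the retinoic acid receptor core site, 81 bases before the start, and the En1 window 1 match to the Meis site, 74 bases before it. Of 32851 promoter windows of this length, 16.3% held AGGTCA and 19.2% held TGACAG, so such matches are common. Neither window held the composite Hox and Pbx site (TGATNNAT, in 8.85% of windows) or the Gli site (TGGGTGGTC, in 0.253%). These motifs share no overlapping match in the 2 windows.

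**Figure D1:**
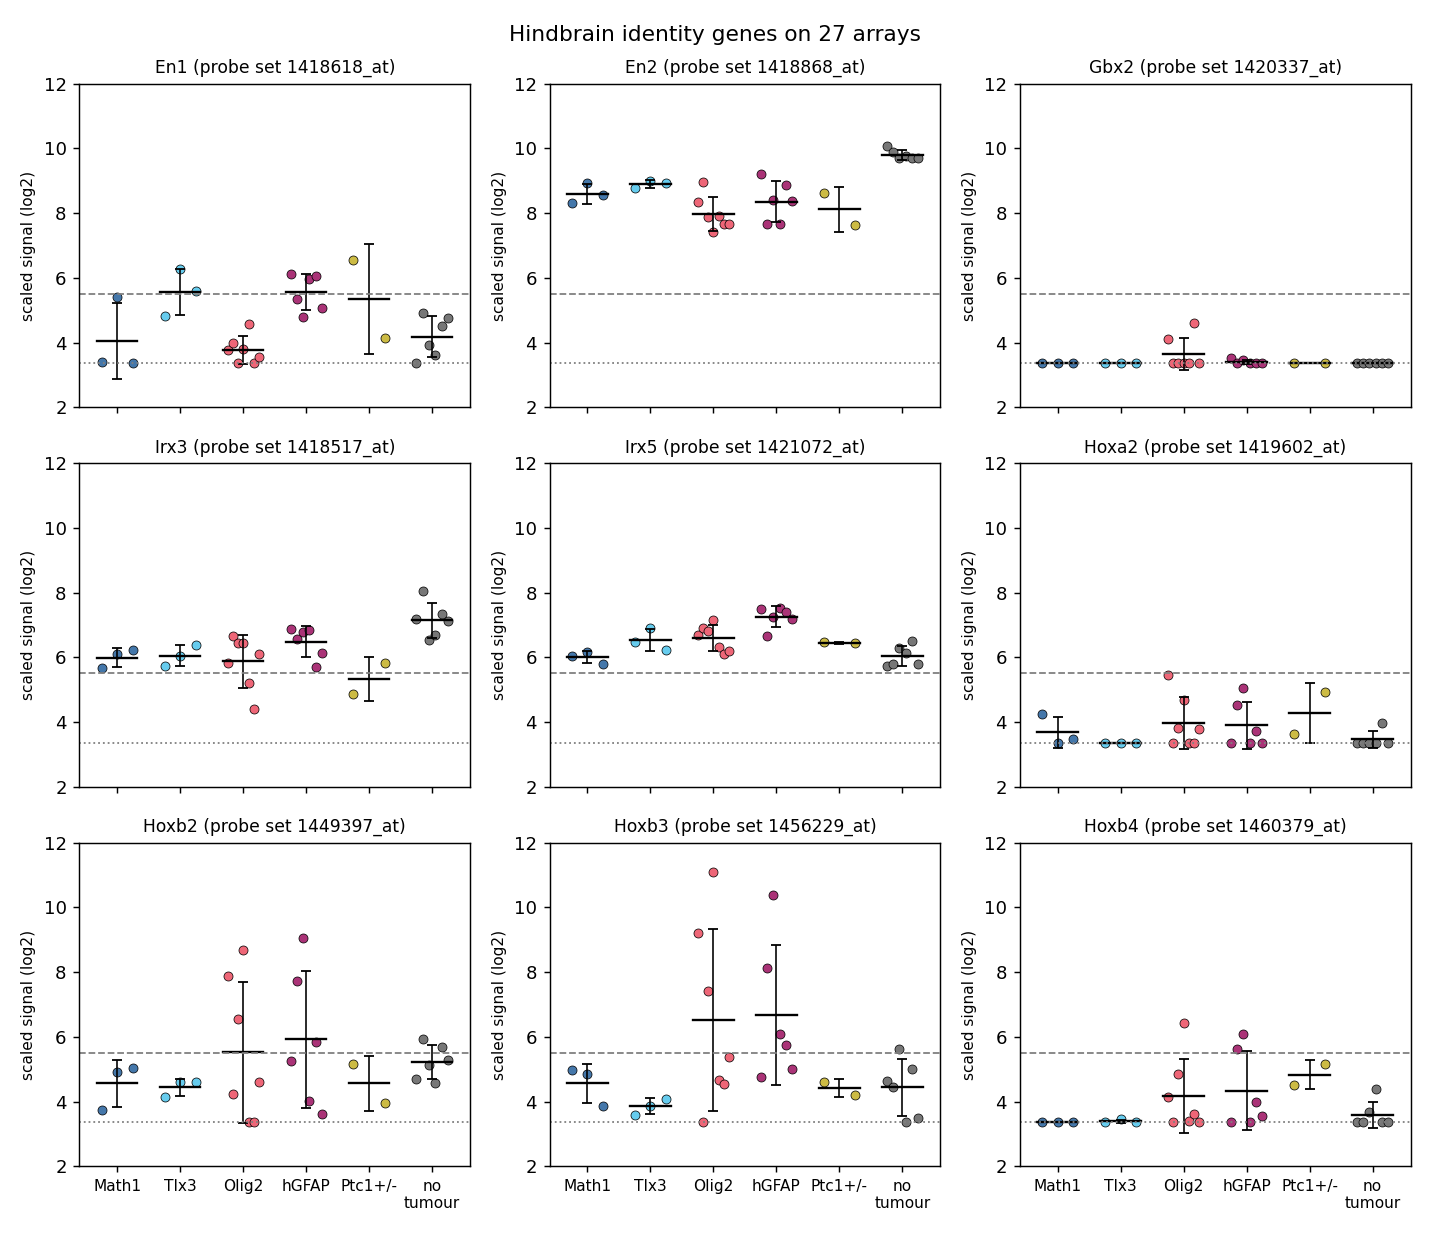
Scaled signal (log2) of the 9 genes by group on 27 arrays. Each point is an array, the bar and whiskers are the mean and SD of a group, the dotted line is the floor (3.37) and the dashed line the table median (5.51). En2 lies lower in every tumour than in every control, and Hoxb2, Hoxb3 and Hoxb4 are spread widely among Olig2 and hGFAP tumours.

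Of the 9 genes, 7 passed the filter on dim signal, which asked for a signal above the table median on at least 3 arrays. En2 and Irx5 were above that median on all 27 arrays and Irx3 on 24. Hoxb2 and Hoxb3 were above it on 8 arrays each, En1 on 6 and Hoxb4 on 3. Gbx2 and Hoxa2 never reached it and were not tested. Gbx2 was at the floor on 23 of 27 arrays, and its other values were 4.12 and 4.61 in Olig2 tumours 1 and 6 and 3.53 and 3.46 in hGFAP tumours 1 and 3. Hoxa2 was at the floor on 15 arrays and reached 5.45 at most, in Olig2 tumour 1.

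Over all tumours, 3 of the 7 tested members were called, Irx5 higher and En2 and Irx3 lower. Among all genes tested, 26.8% were called higher and 25.6% lower, so calls were common in this comparison. The members' median difference was 0.43, the value of Hoxb4, which was not called, and that of all genes tested was 0.02. These medians were not compared by a test. En2 fell in each of the 5 tumour groups, Irx3 fell in 4 of them, Irx5 rose in 2 and En1 in 2. The 5 groups were set against the same controls, so their calls are not independent of each other.

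En2, the Engrailed gene that stays active in the cerebellum after birth, was called lower in every tumour group. Its signal was 8.30, 8.93 and 8.55 in Math1 tumours, 8.78, 9.0 and 8.93 in Tlx3 tumours, and 8.61 and 7.63 in Ptc1+/- tumours. It ran from 7.42 (median 7.88) to 8.97 in Olig2 tumours, from 7.66 (median 8.38) to 9.19 in hGFAP tumours and from 9.69 (median 9.74) to 10.06 in the controls. Every tumour array lay below every control array. Over all tumours the difference was -1.41 ± 0.21 (log2, SE), a 2.66-fold lower signal, with an adjusted p of 1.26e-06 from limma.

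By group, En2 fell by 1.21 in Math1 tumours (adjusted p = 0.00241, limma), 0.90 in Tlx3 tumours (0.021), 1.82 in Olig2 tumours (2.86e-07), 1.44 in hGFAP tumours (2.73e-05) and 1.68 in Ptc1+/- tumours (0.000404). Of all genes tested, the share called against the controls was 37.4% for Math1 tumours, 40.3% for Tlx3 tumours, 49.6% for Olig2 tumours, 41.7% for hGFAP tumours and 36.3% for Ptc1+/- tumours. Of the 7 members, 2, 3, 3, 3 and 2 were called in the same order of groups. The Tlx3 and Ptc1+/- calls were lost when single arrays were left out. Without Tlx3 tumour 1 the Tlx3 difference was -0.83 (adjusted p = 0.0791, limma), without Tlx3 tumour 3 it was -0.91 (0.0539), and without Ptc1+/- tumour 2 the Ptc1+/- difference was -1.19 (0.0532). With the values as deposited, unscaled, Math1 tumours gave -1.12 (0.16) and Tlx3 tumours -0.52 (0.539), and the other 3 groups kept their calls.

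The En2 signal of tumours moved with the brightness of the array even after scaling. The 7 dimmest arrays, all of them tumours, gave En2 values from 7.42 to 7.90, and the other 14 tumour arrays gave 7.67 to 9.19. Of the tumour arrays, 6 had a brightness within the range of the controls, and their En2 values, 8.30 to 9.19, were still below all controls. Without the 7 dimmest arrays the difference over all tumours was -1.15 (adjusted p = 5.6e-06, limma), and that of Olig2 tumours was -1.14 (0.00191). Markers of mature granule neurons also differed between the groups: the summed scaled signal of 5 such genes ran from 1793 to 6489 over the tumours and from 16064 to 24292 over the controls, and its part in the En2 difference was not tested. No pair of SmoM2 tumour groups differed in En2 by an adjusted p under 0.05, the widest gap being that of Olig2 minus Tlx3 tumours at -0.93 (95% interval -1.54 to -0.31, adjusted p = 0.166, limma).

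**Figure D2:**
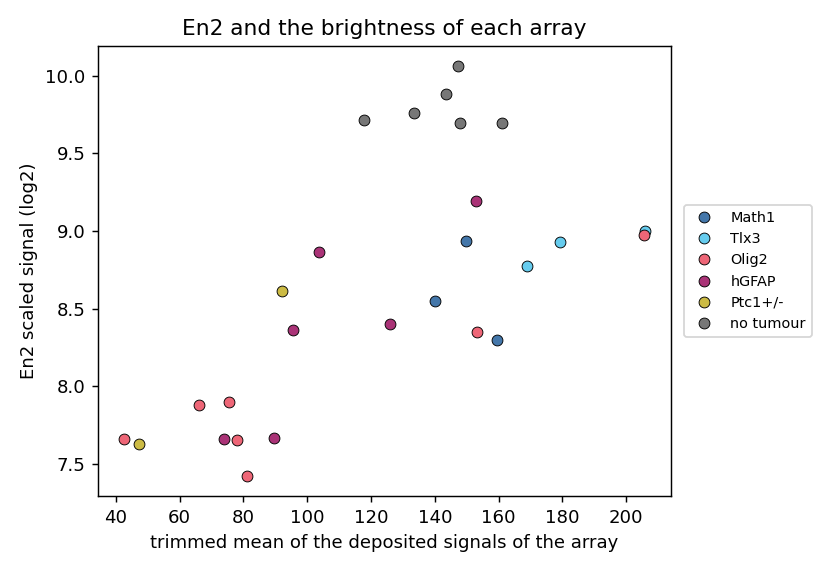
En2 scaled signal (log2) against the trimmed mean of the deposited signals, 1 point per array, coloured by group. The dimmest 7 arrays lie between 7.42 and 7.90, and the 6 controls lie above all tumour arrays, those of like brightness included.

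En1, the Engrailed gene that acts first at the isthmus, was above the table median on few arrays and was called in 2 tumour groups, both times higher. It was 3.41, 5.42 and 3.37 in Math1 tumours, 4.83, 6.27 and 5.61 in Tlx3 tumours, and 6.55 and 4.15 in Ptc1+/- tumours. It ran from 3.37 (median 3.77) to 4.59 in Olig2 tumours, from 4.80 (median 5.66) to 6.11 in hGFAP tumours and from 3.37 (median 4.22) to 4.92 in the controls. All 6 hGFAP tumours lay above all 7 Olig2 tumours, and 5 of them above all controls, while Math1 and Olig2 tumours overlapped the controls. En1 was at the floor on 4 arrays, 3 of them tumours. It was above the table median in 2 Tlx3, 3 hGFAP and 1 Ptc1+/- tumours, and in 0 Math1 tumours, Olig2 tumours or controls. En1 thus passed the filter only through groups in which it was high, and its calls below carry that limit.

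En1 was higher in hGFAP than in Olig2 tumours by 1.78 ± 0.40 (log2, SE), or 3.43-fold, with an adjusted p of 0.0211 from limma. This was the only call of a member between any pair of SmoM2 tumour groups, in a comparison in which 2.99% of all genes were called. The difference was 1.67 to 1.93 when each of the 27 arrays was left out in turn, and the call was lost without Olig2 tumour 7 (1.74, adjusted p = 0.0502) or hGFAP tumour 5 (1.68, 0.0504). Since Olig2 tumours were near the floor, 2 of 7 at it, the size depends on the floor, and with the floor at the 40th percentile it was 0.66 (adjusted p = 0.0808). With only these groups in the model the adjusted p was 0.068. Without the 7 dimmest arrays, 5 of which were Olig2 tumours, it was 1.60 with an adjusted p of 0.202.

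Against the controls, En1 rose by 1.38 in hGFAP tumours (adjusted p = 0.00853, limma) and by 1.39 in Tlx3 tumours (0.0313). The Tlx3 call was lost without Tlx3 tumour 2 (1.04, adjusted p = 0.187), Tlx3 tumour 3 (0.0837) or control 1 (0.0652), 3 (0.0509) or 4 (0.0585). It was also lost with the floor at the 5th percentile (1.41, 0.101) or the 40th (0.68, 0.0587) and without the 5 arrays of highest 3′ to 5′ ratio (1.22, 0.0717). Over all tumours the difference was 0.68 (95% interval -0.02 to 1.39, adjusted p = 0.0973), and without Ptc1+/- tumour 2 it was 0.92 (0.0185). Olig2 tumours gave -0.40 (0.433), Math1 tumours -0.12 (0.889) and Ptc1+/- tumours 1.17 (0.126). Unscaled values gave 0.96 for hGFAP tumours (0.119) and 1.66 for hGFAP minus Olig2 tumours (0.136), and without the 5 arrays of highest 3′ to 5′ ratio the hGFAP value was 1.24 (0.0518).

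Irx3 and Irx5 both lie on chromosome 8, and over all tumours their signals moved in opposite directions against the controls. From tumour to tumour they went together in part, with Pearson's r of 0.51 and Spearman's rho of 0.55 over the 21 tumours. Irx3 was 5.68, 6.10 and 6.21 in Math1 tumours, 5.73, 6.05 and 6.39 in Tlx3 tumours, and 4.86 and 5.81 in Ptc1+/- tumours. It ran from 4.41 (median 6.11) to 6.67 in Olig2 tumours, from 5.69 (median 6.68) to 6.87 in hGFAP tumours and from 6.54 (median 7.15) to 8.05 in the controls. The Math1, Tlx3 and Ptc1+/- tumours lay below every control, and 4 hGFAP tumours and 1 Olig2 tumour lay above the lowest control.

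Over all tumours Irx3 fell by 1.20 ± 0.27 (log2, SE), or 2.29-fold, with an adjusted p of 0.000357 from limma. It fell by 1.15 in Math1 (adjusted p = 0.0217), 1.09 in Tlx3 (0.0285), 1.27 in Olig2 (0.0011) and 1.81 in Ptc1+/- tumours (0.00235). In hGFAP tumours the difference was -0.66 (95% interval -1.32 to -0.0033, adjusted p = 0.101), and hGFAP minus Olig2 tumours gave 0.61 (-0.03 to 1.24, adjusted p = 0.237), so the groups were not shown to differ. The Math1 call was lost without Math1 tumour 1 (-0.99, adjusted p = 0.111) or control 2 (-0.97, 0.0547), and the Tlx3 call without Tlx3 tumour 1 (-0.93, 0.127), Tlx3 tumour 2 (-1.09, 0.0742) or control 2 (-0.91, 0.0684). The Ptc1+/- call was lost without Ptc1+/- tumour 1 (-1.34, 0.0951). Unscaled values gave -1.07 in Math1 (0.149) and -0.71 in Tlx3 tumours (0.341), and quantile normalisation gave -0.96 in Tlx3 tumours (0.0511).

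Irx5 was 6.05, 6.16 and 5.81 in Math1 tumours, 6.48, 6.91 and 6.22 in Tlx3 tumours, and 6.48 and 6.44 in Ptc1+/- tumours. It ran from 6.10 (median 6.71) to 7.16 in Olig2 tumours, from 6.66 (median 7.33) to 7.53 in hGFAP tumours and from 5.74 (median 5.96) to 6.51 in the controls. All hGFAP tumours lay above all controls, and Math1 tumours lay within the range of the controls. The rise over all tumours was 0.53 ± 0.17 (log2, SE), or 1.44-fold, with an adjusted p of 0.0102 from limma.

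By group, Irx5 rose by 1.21 in hGFAP tumours (adjusted p = 2.1e-05, limma), or 2.32-fold, and by 0.56 in Olig2 tumours (0.0206), or 1.47-fold. The Olig2 call was lost without Olig2 tumour 4 (0.47, adjusted p = 0.0537) or control 1 (0.50, 0.0523). Tlx3 tumours gave 0.49 (0.124), Ptc1+/- tumours 0.41 (0.289) and Math1 tumours -0.03 (0.936). The values as deposited, with no scaling, gave 0.18 for all tumours (0.681), 0.77 for hGFAP tumours (0.132) and -0.12 for Olig2 tumours (0.812). There the median of all genes was itself shifted by -0.33 for all tumours and by -0.67 for Olig2 tumours. Without the 5 arrays of highest 3′ to 5′ ratio, Irx5 gave 0.43 for all tumours (0.0505) and 0.35 for Olig2 tumours (0.201).

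**Figure D3:**
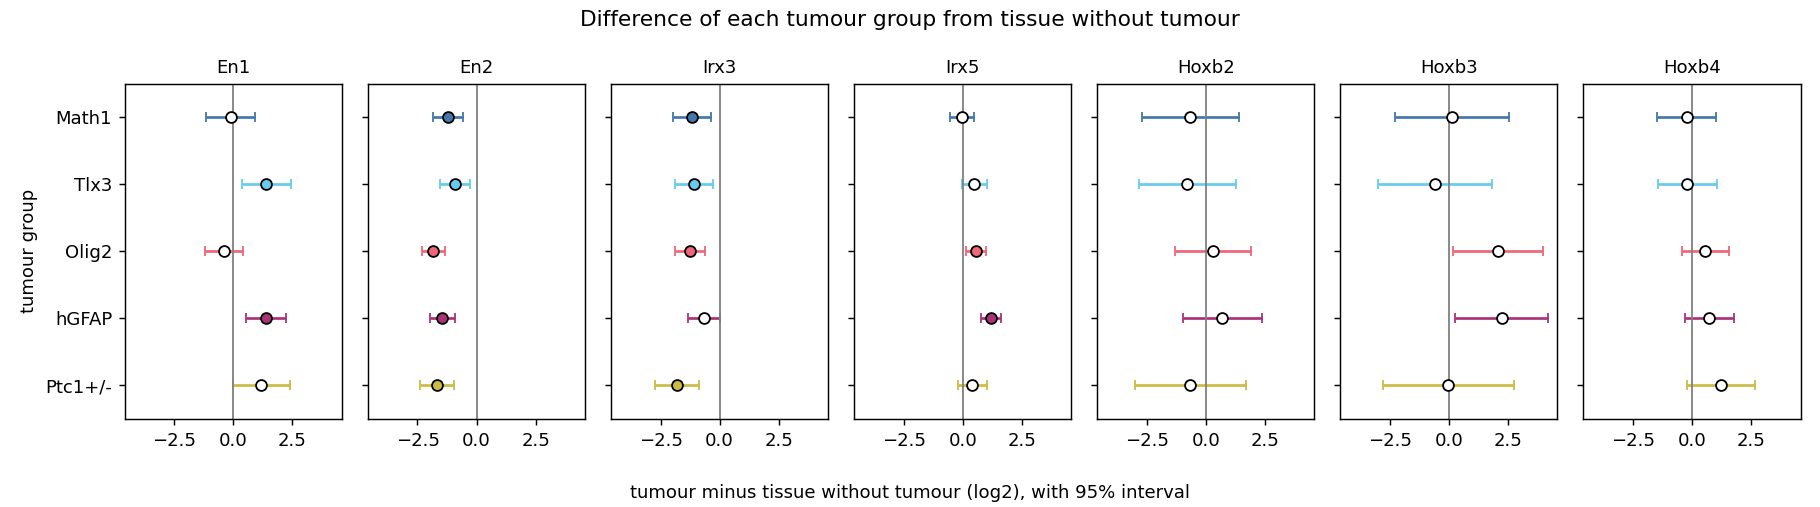
Difference of each tumour group from the controls (log2) for the 7 tested members, with 95% intervals. Filled points passed an adjusted p under 0.05 in limma. En2 is filled in all 5 groups and Irx3 in 4, and the intervals of the Hoxb genes are the widest.

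An F statistic over the 4 SmoM2 groups asked whether a member differed with the cre driver. It called Irx5 (adjusted p = 0.0403, limma) and En1 (0.0413), 2 of 7 members, with 0.946% of all genes tested called. The Irx5 means ran from hGFAP tumours (7.25 ± 0.32, SD, n = 6) through Olig2 (6.60 ± 0.40, n = 7) and Tlx3 (6.53 ± 0.35, n = 3) to Math1 tumours (6.01 ± 0.18, n = 3). Between neighbours in this order, hGFAP minus Olig2 tumours gave 0.65 (adjusted p = 0.0604), Olig2 minus Tlx3 tumours 0.07 (0.925) and Tlx3 minus Math1 tumours 0.53 (1.0). The En1 means were 5.57 ± 0.72 in Tlx3, 5.56 ± 0.56 in hGFAP, 4.07 ± 1.17 in Math1 and 3.78 ± 0.43 in Olig2 tumours (SD, same n).

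These F calls were close to the threshold. En1 was not called when any of 14 arrays was left out in turn (Math1 1 and 3, Tlx3 2 and 3, Olig2 5 to 7, hGFAP 1, 2 and 4 to 6, and controls 3 and 5), with adjusted p-values up to 0.0916. Irx5 was not called without any of another set of 14 (Math1 1 to 3, Tlx3 1 and 2, Olig2 5 and 7, hGFAP 1 and 3 to 6, and controls 3 and 4), with values up to 0.0866.

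Between pairs of SmoM2 groups other than hGFAP and Olig2, limma called 0 of 7 members. At an unadjusted p under 0.05 there were 1 for Tlx3 minus Math1 tumours, 2 for Olig2 minus Math1, 2 for hGFAP minus Math1, 3 for Olig2 minus Tlx3 and 2 for hGFAP minus Tlx3. The shares of all genes called in these pairs were small as well, at 0%, 0.0296%, 0.037%, 0.2% and 0.754%. The member closest to a call was Irx5 in hGFAP minus Math1 tumours, at 1.25 (95% interval 0.73 to 1.76, adjusted p = 0.0658). The hGFAP and Olig2 tumours together against Math1 and Tlx3 tumours gave 0 calls among the members, 3 at an unadjusted p under 0.05, and 0.259% of all genes, with Irx5 at 0.66 (adjusted p = 0.0929) and Hoxb3 at 2.39 (0.171). Ptc1+/- tumours against the SmoM2 groups gave 0 calls, 0 at an unadjusted p under 0.05, and 0.547% of all genes.

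Hoxb2, Hoxb3 and Hoxb4, which pattern rhombomeres behind the cerebellar territory, lie next to each other on chromosome 11. Hoxb2 and Hoxb3 were high together in some Olig2 and hGFAP tumours, not in all of either group, and Hoxb4 was high in part of these. Hoxb3 was 9.21, 3.37, 7.42, 11.08, 4.68, 4.53 and 5.37 in Olig2 tumours 1 to 7. It was 4.75, 8.12, 10.39, 6.08, 5.77 and 5.01 in hGFAP tumours 1 to 6. It was 4.98, 4.86 and 3.85 in Math1 tumours, 3.60, 3.87 and 4.10 in Tlx3 tumours, 4.61 and 4.21 in Ptc1+/- tumours, and from 3.37 (median 4.55) to 5.64 in the controls. Olig2 tumours 1, 3 and 4 and hGFAP tumours 2 and 3 thus lay more than 1 log2 unit above every control, and the other 16 tumours did not.

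The second Hoxb3 probe set gave 7.10, 5.12 and 8.87 in Olig2 tumours 1, 3 and 4 and 7.09 and 8.70 in hGFAP tumours 2 and 3, against 3.37 to 5.86 in the other 16 tumours. In Olig2 tumour 3 it was within the range of the other 16, so the Hoxb3 probe sets disagreed there. Hoxb2 gave 7.87, 6.55 and 8.70 in Olig2 tumours 1, 3 and 4. It gave 7.71 and 9.06 in hGFAP tumours 2 and 3, and 3.37 to 5.86 in the other 16. The 6 controls had Hoxb2 values from 4.58 (median 5.21) to 5.92, so each of these 5 tumours lay above all controls. On the other Olig2 and hGFAP tumours Hoxb2 was no higher than the highest control.

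Hoxb4 followed the others in part. It gave 4.14, 4.85 and 6.44 in Olig2 tumours 1, 3 and 4 and 5.62 and 6.11 in hGFAP tumours 2 and 3, and it was at the floor in Math1 tumours. Its other values were 3.37 to 5.15 in the other 16 tumours, the highest being the 2 Ptc1+/- tumours at 4.52 and 5.15, and from 3.37 to 4.39 in the controls. The second Hoxb4 probe set was high in Olig2 tumour 4 (6.46) and hGFAP tumours 2 and 3 (6.17 and 5.53) but at the floor in Olig2 tumours 1 and 3, so the probe sets of this gene disagreed there. That probe set was above the floor on all 6 controls, at 3.47 to 4.89.

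**Figure D4:**
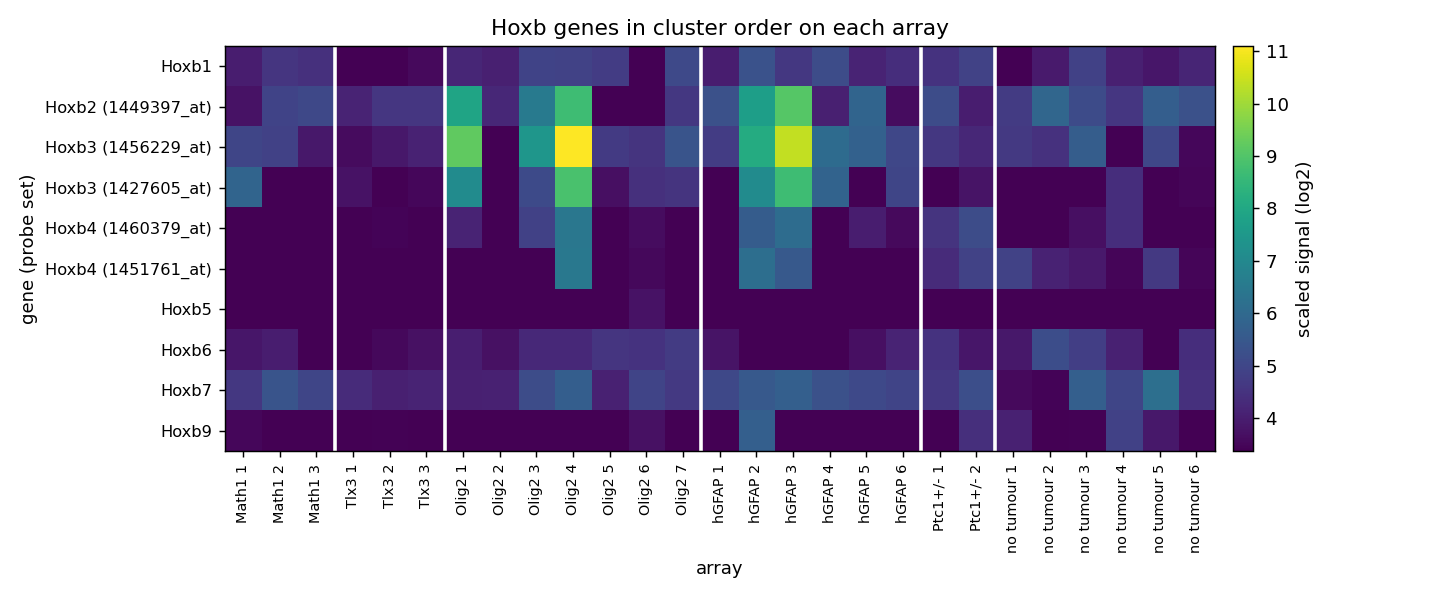
Scaled signal (log2, colour) of Hoxb genes by their number in the cluster (rows, with the probe set where the gene is a member) on each array (columns, groups split by white lines). Hoxb2 and Hoxb3 stand out in Olig2 tumours 1, 3 and 4 and hGFAP tumours 2 and 3, and Hoxb4 mainly in Olig2 tumour 4 and hGFAP tumours 2 and 3. Hoxb1 and Hoxb5 on either side do not stand out.

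The genes directly on either side in the cluster, Hoxb1 and Hoxb5, did not stand out in the same tumours. Hoxb1, beside Hoxb2, gave 4.19, 4.93, 4.90, 5.31 and 4.63 in those 5 tumours and 3.37 to 5.15 in the other 16. Hoxb5, on the other side of Hoxb3 and Hoxb4, was at the floor in all 5 and on 26 of 27 arrays. Hoxb6 was at most 4.27 in the 5 tumours and 4.72 in the other 16. Hoxb7 was 5.69, 5.52 and 5.72 in Olig2 tumour 4 and hGFAP tumours 2 and 3, above the other 16 tumours (4.06 to 5.37) but within the controls (3.45 to 6.20). Hoxb9 was 5.69 in hGFAP tumour 2, above the other 16 tumours (at most 4.42), and 3.37 or 3.38 in the other 4. In the annotation the span of Hoxb3 overlaps Hoxb4, the miRNA gene Mir10a and the noncoding gene Hoxb3os, and Hoxb3os also overlaps Hoxb2. Signals of overlapping genes may not be separable here.

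No group mean of a Hoxb member was called. Hoxb3 was 2.08 higher in Olig2 tumours than in controls (95% interval 0.19 to 3.98, adjusted p = 0.0625, limma) and 2.25 higher in hGFAP tumours (0.28 to 4.21, adjusted p = 0.0609). The SDs within these groups were 2.81 (n = 7) and 2.17 (n = 6), against 0.88 in the controls. Over all tumours Hoxb2 gave -0.21 (adjusted p = 0.818), Hoxb3 0.77 (0.439) and Hoxb4 0.43 (0.401). The Hoxb2 value changed sign with a higher floor and without the dimmest arrays.

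Across the 21 tumours, Pearson's r was 0.90 between Hoxb3 and Hoxb2, 0.80 between Hoxb3 and Hoxb4 and 0.80 between Hoxb2 and Hoxb4, with Spearman's rho of 0.58, 0.56 and 0.48. Without Olig2 tumour 4 and hGFAP tumour 3 the r were 0.79, 0.54 and 0.59. Over the 16 tumours without high Hoxb3 the r were 0.11, 0.01 and 0.11, with rho of 0.05, 0.07 and -0.14. The 5 tumours left out were picked by their Hoxb3 signal, so r falls at least in part by that choice. How far the likeness rested on them cannot be read from these values. Hoxa2, on chromosome 6, gave 5.45, 3.81, 4.68, 4.52 and 5.06 in the 5 tumours and 3.37 to 4.94 in the other 16, all below the table median.

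Levels of brainstem and choroid plexus markers stand beside these values. The summed signal of 11 brainstem neuron genes was 541, 856 and 840 in Olig2 tumours 1, 3 and 4 and 803 and 1070 in hGFAP tumours 2 and 3. Over all arrays of the groups it ran from 430 to 1227 in Olig2 tumours, from 803 to 1574 in hGFAP tumours and from 291 to 523 in the controls. The glutamate transporter gene Slc17a6, which is also expressed outside the brainstem, made up 44.1% to 78.6% of the sum in the 5 tumours, so the sum is largely a level of that gene. The serotonin neuron genes Tph2 and Slc6a4 were at the floor on 24 and 26 of 27 arrays. The summed signal of 6 choroid plexus genes, led by the thyroid hormone carrier Ttr, was 279, 13772 and 4524 in the same Olig2 tumours and 8426 and 10696 in the same hGFAP tumours. It ran from 263 to 13772 over all Olig2 tumours, from 280 to 10696 over all hGFAP tumours and from 261 to 10660 over the controls. Ttr alone made up 90.7% to 96.5% of the sum in 4 of the 5 tumours and 4.51% in Olig2 tumour 1, where it was near the floor. Tumours without high Hoxb3 had large sums too, with 3472, 7959 and 5019 in Olig2 tumours 5 to 7, 4934 and 5367 in hGFAP tumours 4 and 5, and 2246 to 6278 in Tlx3 tumours. The part of choroid plexus in the Hoxb values was not tested.

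The 5 tumours, in the same order, had trimmed means of 153.11, 66.26, 81.0, 89.74 and 125.83. The mean log2 ratio of 3′ to 5′ control probe sets, which rises as RNA degrades, was 0.31, 1.72, 1.78, 0.66 and 0.32, against a range of -0.15 to 1.88 over all arrays. Without the 5 tumours, the calls of En1, En2 and Irx3 against the controls held, as did that of En1 between hGFAP and Olig2 tumours, and the Irx5 rise of Olig2 tumours was 0.34 (adjusted p = 0.183, limma).

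Among all genes tested, those whose signal over the 21 tumours was most like Hoxb3 by Pearson's r were Hoxb2 (0.90), Meis2 (0.80) and Hoxb4 (0.80), and those most like Hoxb2 were Hoxb3 (0.90), Tspan18 (0.83) and Hoxb4 (0.80). Hoxb4 passed the filter only through Olig2 tumour 4 and hGFAP tumours 2 and 3, all of high Hoxb3. Its place among these genes carries that limit. Over the 16 tumours without high Hoxb3, a set picked by Hoxb3 signal, its r was 0.01 with Hoxb3 and 0.11 with Hoxb2. Meis2 encodes a homeodomain protein that binds DNA together with Hox and Pbx proteins. It was 5.28, 5.48 and 8.56 in Olig2 tumours 1, 3 and 4 and 6.19 and 7.97 in hGFAP tumours 2 and 3, with 3.37 to 6.18 in the other 16 tumours. Olig2 tumour 4 and hGFAP tumour 3 stood apart in Meis2, and the others did not. For En1 the nearest genes were Zglp1 (0.70), Rabgap1l (0.69) and Sos2 (0.67), and for En2 Zbtb18 (0.90), Chd9 (0.88) and Atl1 (0.88). For Irx3 they were P2ry14 (0.86), Map3k5 (0.83) and Lgi2 (0.79), and for Irx5 Prickle2 (0.82), Il6st (0.80) and Fos (0.78). The arrays share their brightness, which moved with En2, so these likenesses are descriptions only.

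Other genes of the patterning network were read from lists, and their counts over all tumours stand against the 26.8% of all genes called higher and 25.6% called lower in that comparison. Of the Hox cofactors, 7 of 9 were tested over all tumours, and 4 rose, 1 fell and 2 were not called, with a median difference of 0.45 beside 0.02 over all genes. Meis1 rose by 1.69 (adjusted p = 4.88e-10, limma) and Pbx3 by 1.69 (6.52e-07), while Pknox2 fell by 0.68 (0.00459) and Pbx2 gave -0.23 (0.382). Of 8 other Hox genes of groups 1 to 4, 6 were on the array and 0 passed the filter. Of 27 Hox genes of groups 5 to 13, 7 were tested and limma called 0 over all tumours, with 1 at an unadjusted p under 0.05 and a median of 0.08. Their extremes were Hoxd13 at 0.23 (0.63), Hoxa11 at 0.14 (0.734), Hoxc9 at -0.51 (0.407) and Hoxa5 at -0.93 (0.0596).

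Of the regulators upstream of hindbrain Hox genes, 6 of 13 were tested, and 1 rose and 2 fell, with a median of -0.32. Egr2, the zinc finger factor of rhombomeres 3 and 5, rose by 1.87 (adjusted p = 2.29e-07, limma) with 3 of 6 controls at the floor, and Aldh1a2, which makes retinoic acid, gave 0.13 (0.79). Cyp26b1, which degrades retinoic acid, fell by 1.93 (0.000153) with 5 of 21 tumours at the floor, and Cdx2 fell by 0.95 (0.0198), with 14 of 21 tumours at the floor.

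Of 16 genes of the isthmic organiser and the Fgf8 response, 10 were tested, and 2 rose, 2 fell and 6 were not called, with a median of 0.05. Fgf8 itself was at the floor on 26 arrays. Cnpy1, 4 annotated genes away from En2 on chromosome 5, which promotes Fgf signalling in zebrafish, fell by 2.14 (adjusted p = 4.23e-08, limma), and Spry2, an inhibitor of that signalling, fell by 0.71 (0.0011). Dusp6 rose by 0.78 (0.00191) and Spry1 by 0.63 (0.00612), and both encode feedback inhibitors. Of the Groucho co-repressors, which Engrailed recruits, 5 of 6 were tested. Tle1 rose by 1.98 (1.11e-10) and Tle3 by 0.76 (1.79e-05), Tle2 fell by 1.41 (4.78e-08) and Tle4 gave 0.06 (0.812), with a list median of 0.34.

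Of 12 midbrain and forebrain factors, 5 were tested and 3 rose, with a median of 2.16. Otx2, which Gbx2 opposes at the isthmus, rose by 2.68 (adjusted p = 5.33e-09, limma). Lhx2, at the floor in all 6 controls and in no tumour, was at least 3.70 log2 units higher (8.22e-16). Otx1 rose by 2.16 (0.000359), a size that depends on the floor, since 5 of 6 controls were at it. Six3 gave -0.01 (0.976) and Dmbx1 -0.10 (0.825). The F statistic over the SmoM2 groups called Otx1 (adjusted p = 0.0234), Lhx2 (0.0253) and Otx2 (0.0297), beside 0.946% of all genes. Otx1 averaged 7.73 in Math1 tumours, 6.30 in Tlx3 tumours, 3.97 in Olig2 tumours, 5.41 in hGFAP tumours and 3.39 in the controls. It was above the table median on 10 of 27 arrays, and its means in Olig2 and hGFAP tumours and controls were below that median. Otx1 thus passed the filter mainly through groups in which it was high, and its calls carry that limit. Of 4 other Iroquois genes, 2 were tested, and Irx1 rose by 0.44 (0.0359) and Irx2 gave 0.37 (0.25).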

How the data were processed

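The deposited values were linear signal intensities of 45101 probe sets on 27 arrays. Per the submitters' processing notes, the authors used MAS5. The MAS5 version and scaling target are not given in the sources used here, and detection calls were not used. Per the labels' protocols, extraction used Trizol and then RNeasy. No 2 arrays held identical values.

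Trimmed means (2% cut at each end) differed 4.84-fold between arrays, so each array was scaled to 123.61. Signals under the 20th percentile (10.32) were raised to it and log2 was taken. Probe sets above the table median (45.56) on at least 3 arrays were kept (30107), and the brightest of each gene was used (13527 genes). Genes were named by the platform annotation, with 34958 probe sets of 1 gene, 932 of several and 9211 unlisted, and 34754 were matched to RefSeq by Entrez number.

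Groups were compared with limma 3.58.1 in R 4.3.3, with 1 mean per group over all 27 arrays (21 residual degrees of freedom), eBayes with trend and robust fit, two-sided tests and Benjamini-Hochberg adjustment. All tumours means the mean of the 5 group means. The model was tested on simulated data. For p-values, tumour arrays are labelled as biological replicates and nothing says so of the controls, whose spread may be technical.

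The members and lists were chosen with earlier results of these data known. All 9 members are named. Of each other patterning list the 2 highest and 2 lowest differences are named, plus genes called by the F statistic with SmoM2 means at least 2-fold apart, and for likeness the 3 highest correlations of each member with at most 5 of 21 tumour arrays at the floor. Of the marker lists, those of brainstem neurons and choroid plexus are read per array beside the Hoxb genes, and the rest are given as counts. Alternatives changed the scaling, floor, filter, probe set, moderation, weights, arrays in the model, a replicate block, RNA quality and brightness, and left out each array in turn. Leaving out the tumours of high Hoxb3 was added after seeing the data.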

Additional observations from a re-analysis of the deposited data

Results flagged for a closer look

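The highest sample stood far from the rest of its group for 4 of 32 combinations of probe set and group examined. Chance gives about 1 in 20 where values vary freely, but in these 4 groups most values were at the floor (5 of 7, 4 of 6, 4 of 6 and 5 of 6 in the order below), so that rate does not apply and a value above the floor stands apart by construction. The second Hoxb4 probe set was 6.46 in Olig2 tumour 4, with the next highest Olig2 tumour at 3.53. The first Hoxb4 probe set was 4.39 in control 4, with the next control at 3.69. The second Hoxb3 probe set was 4.39 in control 4, with the next at 3.46. Hoxa2 was 3.98 in control 5, with the other controls at the floor of 3.37. The 3 control values all lie below the table median. En1 differed between hGFAP and Olig2 tumours by 1.78 (adjusted p = 0.0211, limma).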

How the results depend on the processing

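The differences of members were recomputed under 879 alternatives of 21 results, and 834 kept their direction and their side of the threshold, 38 lost the call, 4 gained it and 3 changed sign. The sign changes were Irx5 in Olig2 tumours with the values as deposited (-0.12), and Hoxb2 over all tumours with the floor at the 40th percentile (0.16) and without the 7 dimmest arrays (0.089). En2 and Irx3 over all tumours kept their calls under every alternative run. Counts of member calls moved more. The 13 calls of single tumour groups became 7 with the values as deposited, and 11 to 15 when arrays were left out in turn. The 2 calls of the F statistic became 0 with quantile normalisation, with every probe set on its own, with only the groups compared, with the replicate block and without the 7 dimmest arrays. They became 1 with the floor at the 5th or 40th percentile, with the 3′ to 5′ ratio as a covariate and without the 5 arrays of highest ratio, and 0 to 2 when arrays were left out in turn. With the values as deposited the 2 calls were En1 (0.0283) and En2 (0.0444), with Irx5 at 0.107. The 1 call between pairs became 3 with the values as deposited, 0 with the floor at the 40th percentile, 2 with the mean of a gene's probe sets, 5 with array weights, 0 with only the groups compared, 0 with the replicate block, 3 without the 5 arrays of highest ratio, and 0 to 3 when arrays were left out in turn. The 0 calls of hGFAP and Olig2 against Math1 and Tlx3 tumours became 1 with the values as deposited and 1 with array weights. Where a cause is not part of the alternative itself, the cause was not tested. Deviations of same-numbered arrays in other groups correlated from -0.34 to 0.28 (median 0.034, 49 pairs). Those of different-numbered arrays in other groups correlated from -0.316 to 0.57 (median 0.004, 244 pairs), so no pairing by replicate number was seen. With the number as a block the En1 difference of hGFAP minus Olig2 tumours was 1.74 (adjusted p = 0.0512, limma). Signals of En1, Hoxb4, Gbx2 and Hoxa2 near the floor limit what can be read from them.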

Other observations

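Markers of the cell types that the samples could hold were counted over all tumours against the controls, beside a median of 0.02 over all genes, of which 26.8% were called higher and 25.6% lower. Of 6 granule neuron precursor genes, 5 rose (median 4.72), among them Insm1 by 7.17, with 4 of 6 controls at the floor, and Cxcr4 by 4.76 (limma, log2). All 5 genes of mature granule neurons, 4 of Purkinje cells, 4 of GABAergic interneurons and 4 of oligodendrocytes that were tested fell, with medians of -2.77, -4.91, -3.84 and -3.01. Of 6 astrocyte and Bergmann glia genes, 5 fell and 1 rose (median -1.12). Of 5 microglia and macrophage genes, 4 rose (median 2.50), and of 5 mesenchyme genes 3 rose and 1 fell (median 0.55). Of 4 endothelial genes tested, 2 fell and 0 rose (median -0.44). Limma called 0 of 6 choroid plexus genes, with 0 at an unadjusted p under 0.05 (median 0.26).

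Of 6 brainstem neuron genes tested, 2 rose and 1 fell (median 0.10). Slc17a6, a glutamate transporter of the hindbrain and of other regions, rose by 4.82 (adjusted p = 1.5e-11, limma) and Isl1 rose by 1.69 (0.00176). Both had 4 of 6 controls at the floor, which the sizes depend on. Slc6a5, the glycine transporter of inhibitory neurons, fell by 2.85 (1.67e-10). It had 8 of 21 tumours at the floor, which this size depends on, and was above the table median on 6 arrays only. Hoxc4 and Hoxc5, outside the members, were 5.62 and 5.58 in hGFAP tumour 3, which also had high Hoxb2, Hoxb3 and Hoxb4. Hoxc4 was at the floor on 25 of 27 arrays. These 2 genes were chosen after their values were seen.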
